A study of Homo sapiens with 6 samples.

Results

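The adherens junction transcripts described here were those of 6 cadherins and their partners: *CDH1*, *CDH2*, *CDH3*, *CDH4*, *CDH11* and *CDH13*, the catenin genes *CTNNA1*, *CTNNB1* and *CTNND1*, and the vinculin gene *VCL*. They were chosen by gene symbol, and all 10 were found among the 20824 genes of the expression table. The samples were 21NT cells, an established human breast cell line used in the study as a non-invasive model of ductal carcinoma *in situ*. The cells carried an empty pcDNA3.1 vector (EV), the same vector with TBX3iso1, or the same vector with TBX3iso2, and 2 mRNA libraries were sequenced from each line. TBX3 is a T-box transcription factor, and its isoforms differ by a stretch of residues within the DNA-binding domain.

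The lines were pools of cells that survived G418 after 1 transfection, and all lines, EV included, were kept in G418, insulin, EGF and hydrocortisone. The 2 libraries of a line are therefore repeats of 1 transfected line. The sources do not say whether they came from separate cultures, so the SDs and p-values may cover technical spread alone. A fall of a transcript in a line and a smaller share of cells carrying it cannot be told apart in these bulk libraries.

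Cadherins are membrane proteins that bind cadherins of the neighbouring cell in the presence of calcium. Inside the cell p120-catenin (*CTNND1*) binds close to the membrane and limits uptake of the cadherin, while β-catenin (*CTNNB1*) binds the end of the cadherin tail and holds α-catenin (*CTNNA1*), which contacts actin and recruits vinculin when the junction is under tension. β-catenin that is not held at the membrane can enter the nucleus and act with TCF/LEF factors. In breast epithelium E-cadherin (*CDH1*) is the main cadherin of luminal cells and P-cadherin (*CDH3*) is typical of basal and myoepithelial cells, whereas N-cadherin (*CDH2*) and OB-cadherin (*CDH11*) are typical of mesenchymal cells. A shift from E-cadherin to N-cadherin is often described in epithelial-mesenchymal transition (EMT).

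The expression unit was RPKM, which divides reads by transcript length and by sequencing depth, so levels of different genes could be set side by side. A trend with transcript length remained between libraries and is described with the spread between replicates. Libraries held between 43176600 and 54512400 alignments. Genes averaging 0.5 RPKM or more over the libraries, 12805 in number, were tested with limma on log2(RPKM + 0.1). A gene was called higher or lower at an adjusted p under 0.05 together with a fold change over 1.5. Of the 10 junction genes 8 passed the filter, while *CDH4* and *CDH13* did not and were not tested. The 8 were at more than 4 RPKM in every library, so none of them passed through 1 high line only. Both isoforms were compared with the same EV libraries. With 2 libraries per line an exact permutation test cannot give a p below 0.333. *TBX3* itself was at 8.38 ± 0.199 RPKM (SD, n = 2) in EV, 12.3 ± 1.23 in TBX3iso1 and 16.5 ± 1.41 in TBX3iso2. Both isoform lines were above EV, by a log2 difference of 0.54 (adjusted p = 0.00378) and 0.97 (adjusted p = 0.000257), the first under 1.5-fold.

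Among the 8 tested members *CDH2* had the largest log2 difference in TBX3iso1 against EV and between the isoforms, and its sequences are given here. The gene (ENSG00000170558) lies on the minus strand of chromosome 18, from 25512843 to 25757910 of GRCh37. The study measured it by RT-qPCR with the pair of primers below, which are shown because they mark the stretch of transcript in which the study assayed N-cadherin. Each is written in lower case from its 5′ end.
CDH2 forward primer: gacgatcccaatgccctcaa
CDH2 reverse primer: acatgttgggtgaaggggtg
The forward primer matched chr18:25583079-25583098 on the minus strand and the reverse primer chr18:25583020-25583039 on the plus strand of GRCh37. Both lie in coding sequence of exon 7 of the 16 exons of transcript ENST00000269141, and the product is 79 bases long. Both primers were found in 7 of the 11 annotated *CDH2* transcripts and together in transcripts of 0 other genes. The product does not cross an exon border.

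The 250 bases before the upstream annotated *CDH2* start are shown because *CDH2* was the only member called between the isoforms. They are read from the RefSeq promoter table on GRCh38.p14, chr18:28177131-28177380, minus strand, 5′ to 3′.
CDH2 upstream: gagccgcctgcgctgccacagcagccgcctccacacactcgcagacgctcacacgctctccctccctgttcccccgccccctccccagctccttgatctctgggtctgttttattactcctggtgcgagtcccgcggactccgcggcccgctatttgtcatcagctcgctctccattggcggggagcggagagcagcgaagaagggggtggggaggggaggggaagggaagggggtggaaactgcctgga
Of these bases 66.0% were G or C. The RefSeq table held 10 windows for 5 of the members (*CDH2*, *CDH4*, *CTNNA1*, *CTNNB1* and *VCL*), each from 250 bases before to 50 bases after a start, and none for *CDH1*, *CDH3*, *CDH11*, *CDH13* and *CTNND1*. The letters CAGGTG, an E-box that SNAI and ZEB factors can bind, were searched on both strands and occurred in 1 of the 10 windows, a window of *CDH4*. The same letters occurred in 20.59% of all 35116 windows. The T-box letters GGTGTGA occurred on either strand in none of the 10 windows and in 3.449% of all windows. Neither set of letters was in the *CDH2* windows, which says only that these letters are not there.

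*CDH1*, which encodes E-cadherin, was the most abundant member in EV and ranked 346 of 20824 genes by mean RPKM in that line. On chromosome 16 of GRCh37 it runs from 68771195 to 68869440 (ENSG00000039068), next to *CDH3*. It was at 148 and 142 RPKM in the EV libraries, 94.0 and 84.4 RPKM in the TBX3iso1 libraries and 111 and 93.3 RPKM in the TBX3iso2 libraries. Every library of both isoforms lay below both EV libraries, and the TBX3iso1 and TBX3iso2 ranges overlapped. In TBX3iso1 *CDH1* fell by 0.70 ± 0.104 on the log2 scale (SE, adjusted p = 0.00148), a fold of 0.615 with a 95% interval from 0.520 to 0.728. In TBX3iso2 the log2 difference was -0.51 ± 0.104 (SE, adjusted p = 0.00592), a fold of 0.702 (0.593 to 0.830) that did not reach the 1.5-fold threshold. The larger of the TBX3iso2 values came from replicate 1, and without that library the log2 difference was -0.63 (adjusted p = 0.00169), past both thresholds. Without TBX3iso2 replicate 2 it was -0.39 (adjusted p = 0.0210). The difference between the isoforms was 0.19 on the log2 scale (95% interval -0.05 to 0.43, adjusted p = 0.265). So a fall in *CDH1* was called in one isoform, and these libraries did not show that the isoforms differ in it.

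*CDH2*, which encodes N-cadherin, rose in TBX3iso1 and was called lower in TBX3iso2 than in TBX3iso1. It was at 5.95 and 5.42 RPKM in EV, 10.1 and 9.59 RPKM in TBX3iso1, and 5.06 and 4.66 RPKM in TBX3iso2. The 3 ranges did not overlap, with the TBX3iso1 libraries above EV and the TBX3iso2 libraries below EV. The rise in TBX3iso1 was 0.79 ± 0.0934 on the log2 scale (SE, adjusted p = 0.000528), a fold of 1.72 with a 95% interval from 1.48 to 2.003. In TBX3iso2 the difference from EV was -0.22 ± 0.0934 (SE, adjusted p = 0.0896). Tested directly, TBX3iso2 was lower than TBX3iso1 by a log2 difference of -1.01 (adjusted p = 0.000873), a fold of 0.498 (0.428 to 0.579). Leaving out any 1 library kept the difference between the isoforms from -1.06 to -0.95. *CDH2* ranked 5387 among all genes in TBX3iso1, 7546 in EV and 7834 in TBX3iso2, so even in TBX3iso1 it was far below the epithelial cadherins.

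**Figure D1:**
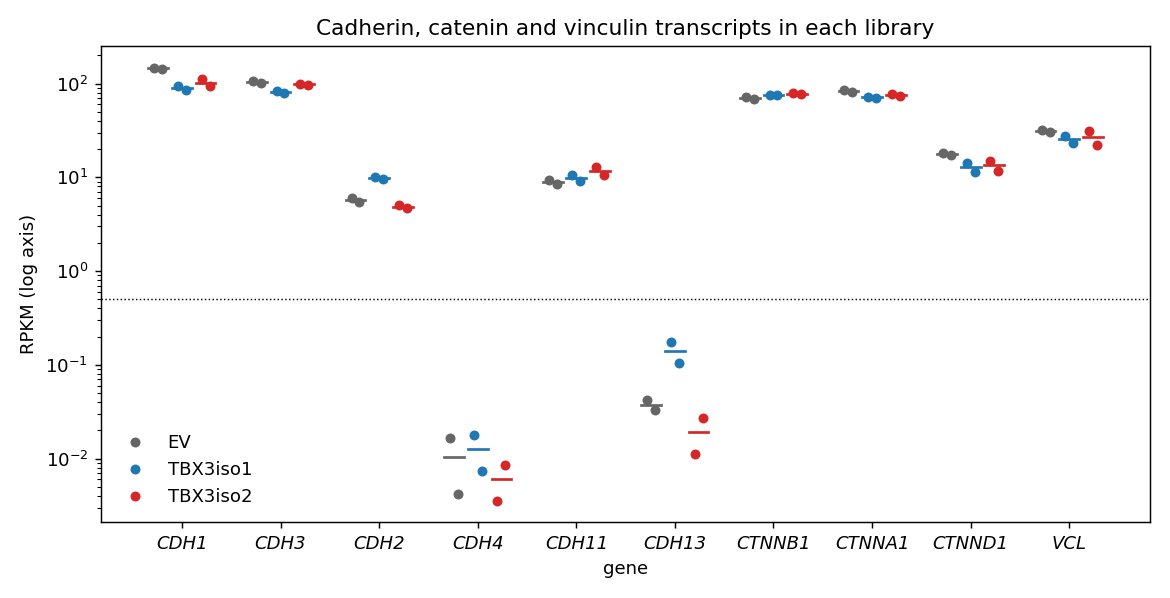
RPKM (log axis) of the 10 junction genes, 1 point per library and 1 bar at the mean of each line (n = 2), with a dotted line at the 0.5 RPKM filter. *CDH1* and *CDH3* lie near 100 RPKM, *CDH2* stands highest in TBX3iso1 at 10.1 and 9.59 RPKM, and *CDH4* and *CDH13* lie below the filter in all libraries.

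*CDH3*, which encodes P-cadherin, was nearly as abundant as *CDH1*. It lies on chromosome 16 from 68670092 to 68761371 of GRCh37 (ENSG00000062038). Its values were 106 and 100.4 RPKM in EV, 83.0 and 78.8 RPKM in TBX3iso1 and 98.9 and 96.5 RPKM in TBX3iso2. The TBX3iso1 libraries were the lowest, and the TBX3iso2 libraries lay just under EV. The log2 difference from EV was -0.35 ± 0.0751 in TBX3iso1 (SE, adjusted p = 0.00767), which passed the adjusted p and not the fold threshold. In TBX3iso2 it was -0.08 (95% interval -0.25 to 0.10, adjusted p = 0.435). Between the isoforms the difference was 0.27 (adjusted p = 0.0498), higher in TBX3iso2 and again under 1.5-fold. That adjusted p lay at the threshold. It stayed under 0.05 with a pseudocount of 1 RPKM (0.0492), a filter at 2 RPKM (0.0497), a replicate block (0.0160) and length-adjusted values (0.0191). It was over 0.05 under all other alternatives tried, such as a pseudocount of 0.01 RPKM (0.0508) and median-ratio scaling (0.0975).

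*CDH11*, a type II cadherin known as OB-cadherin, lies on chromosome 16 from 64977656 to 65160015. It was at 9.31 and 8.48 RPKM in EV, 10.5 and 9.08 RPKM in TBX3iso1 and 12.7 and 10.7 RPKM in TBX3iso2. The EV and TBX3iso1 ranges overlapped, and both TBX3iso2 libraries were above all others. The log2 difference from EV was 0.39 ± 0.116 in TBX3iso2 (SE, adjusted p = 0.0278), a fold of 1.31, and 0.14 in TBX3iso1 (adjusted p = 0.366). Neither passed the fold threshold. The adjusted p in TBX3iso2 was over 0.05 with no filter on low values (0.0763) and with the ordinary linear model on log2 values (0.147). It was under 0.05 with median-ratio scaling (0.0174) and no trend (0.0459). Between the isoforms the difference was 0.25 (95% interval -0.02 to 0.52, adjusted p = 0.187).

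The other cadherins of the set were close to the detection limit. *CDH13*, which encodes T-cadherin, a cadherin anchored to the membrane by a lipid and without a catenin-binding tail, was at 0.0418 and 0.0331 RPKM in EV, 0.175 and 0.105 RPKM in TBX3iso1 and 0.0112 and 0.0268 RPKM in TBX3iso2. The TBX3iso1 libraries were above the rest, at 8.95 and 5.26 alignments per kilobase of transcript, against 0.572 to 2.28 in the other libraries. With no filter on low values *CDH13* passed both thresholds in TBX3iso1 against EV (log2 difference 0.79, adjusted p = 0.0283) and in TBX3iso2 against TBX3iso1 (-0.9995, adjusted p = 0.0423). These fits compare levels below the filter and depend on the 0.1 RPKM added before the logarithm. *CDH4*, which encodes R-cadherin, was between 0.00357 and 0.0180 RPKM, with overlapping libraries in every comparison and fewer than 1 alignment per kilobase.

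Among the catenins, *CTNNB1* and *CTNNA1* were at similar levels and neither was called in any comparison. *CTNNB1* (β-catenin, chromosome 3 from 41236232 to 41301587) was at 72.4 and 68.7 RPKM in EV, 75.3 and 76.0 RPKM in TBX3iso1 and 79.1 and 76.97 RPKM in TBX3iso2. Each isoform library was above both EV libraries, by a log2 difference of 0.10 in TBX3iso1 (95% interval -0.06 to 0.27, adjusted p = 0.276) and 0.15 in TBX3iso2 (-0.02 to 0.31, adjusted p = 0.132). Neither passed the test, and the intervals exclude a 1.5-fold difference. With length-adjusted values, described with the spread between replicates, the differences were 0.20 and 0.20 and passed the adjusted p (0.0171 and 0.0163) but not 1.5-fold. Between the isoforms the difference was 0.04 and turned to -0.01 under median-ratio scaling.

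*CTNNA1* (αE-catenin, chromosome 5 from 137946656 to 138270723) was at 85.4 and 82.0 RPKM in EV, 72.1 and 70.7 RPKM in TBX3iso1 and 77.8 and 72.9 RPKM in TBX3iso2. All isoform libraries were below EV, those of TBX3iso1 lowest. The log2 difference was -0.23 ± 0.0740 in TBX3iso1 (SE, adjusted p = 0.0384) and -0.15 ± 0.0740 in TBX3iso2 (SE, adjusted p = 0.131). Neither reached 1.5-fold.

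*CTNND1* (p120-catenin, chromosome 11 from 57520715 to 57587018) was at 18.1 and 17.5 RPKM in EV, 14.2 and 11.3 RPKM in TBX3iso1 and 14.9 and 11.8 RPKM in TBX3iso2. Both isoforms lay below EV and overlapped each other. The log2 difference was -0.48 ± 0.139 in TBX3iso1 (SE, adjusted p = 0.0248) and -0.42 ± 0.139 in TBX3iso2 (SE, adjusted p = 0.0410), both under 1.5-fold. These values turn on single libraries. Without TBX3iso1 replicate 1 the first was -0.64 and passed both thresholds, and without TBX3iso1 replicate 2 it was -0.32. Without TBX3iso2 replicate 1 the second was -0.59 and passed both, and without TBX3iso2 replicate 2 it was -0.25.

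*VCL* (vinculin, chromosome 10 from 75754951 to 75881121), whose protein was the loading control of the study's western blots, was at 31.7 and 30.2 RPKM in EV, 27.9 and 23.0 RPKM in TBX3iso1 and 31.3 and 21.9 RPKM in TBX3iso2. The TBX3iso2 libraries lay on either side of the TBX3iso1 libraries, and 1 of them fell within the EV range. The log2 difference from EV was -0.29 in TBX3iso1 (95% interval -0.67 to 0.09, adjusted p = 0.185) and -0.24 in TBX3iso2 (-0.62 to 0.14, adjusted p = 0.270), and the TBX3iso2 value became 0.02 without TBX3iso2 replicate 2 and -0.49 without TBX3iso2 replicate 1. These intervals do not exclude a 1.5-fold fall.

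**Figure D2:**
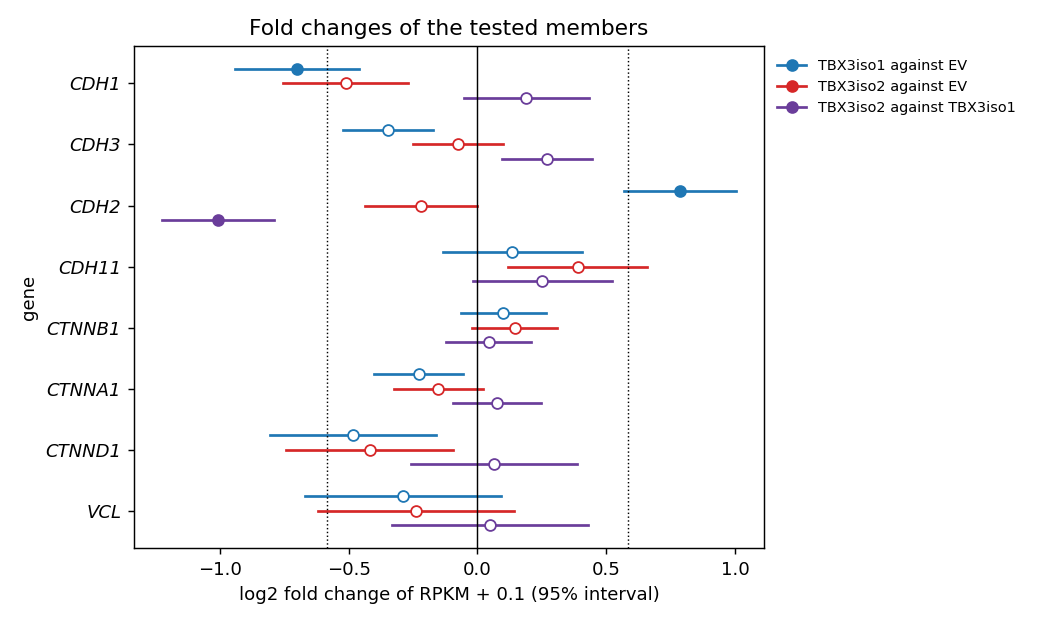
Log2 fold change of RPKM + 0.1 with its 95% interval for the 8 tested genes in the 3 comparisons; filled points passed both thresholds, open points did not, and dotted lines mark 1.5-fold. *CDH2* is filled at 0.79 (TBX3iso1 against EV) and -1.01 (TBX3iso2 against TBX3iso1), *CDH1* at -0.70 (TBX3iso1 against EV), and all other points are open.

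Counted together, 2 of the 8 tested members (25%) passed both thresholds in TBX3iso1 against EV, against 21.5% of all genes tested. One of them was higher (*CDH2*; 7.46% of all genes) and 1 lower (*CDH1*; 14.1%). In TBX3iso2 against EV, limma called 0 of 8, against 21.2% of all genes (8.94% higher and 12.3% lower). There 3 of the 8 had an adjusted p under 0.05, against 45.5% of all genes. Ordinary linear models on log2 and on unlogged values called 0 as well. On log2 values this was fixed beforehand, since the differences are those of limma and all were under 1.5-fold. On unlogged values they were nearly the same, with *CDH1* at -0.51. In TBX3iso2 against TBX3iso1 the count was 1 of 8 (12.5%), against 6.29% of all genes (3.47% higher and 2.82% lower), and the 1 was *CDH2*, which was lower.

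By adjusted p alone, 5, 3 and 2 of the 8 members passed in these comparisons, in the same order, against 44.8%, 45.5% and 14.8% of all genes. Libraries of the lines compared did not overlap for 7, 7 and 5 of the 8, against 78.4%, 74.7% and 53.5% of all genes. The median log2 difference of the 8 was -0.26, -0.19 and 0.07, and that of all genes tested was -0.05, -0.00 and 0.05. With 8 genes these shares are too coarse to set the members apart from all genes. The medians against EV lay below those of all genes in both isoforms, and differences by transcript length are described with the spread between replicates. The set as a whole was not tested.

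The levels were next set against each other within a library. Shares and ratios do not change when a whole library is rescaled by 1 factor, but sums do. Those of genes of unlike length can still carry the length trend that is described with the spread between replicates. The summed level of the 6 cadherins was 263 ± 8.89 RPKM in EV (SD, n = 2), 189.9 ± 11.2 in TBX3iso1 and 216 ± 15.7 in TBX3iso2, and the EV libraries were above the others. Under median-ratio scaling the sums were 256, 196 and 215 RPKM, and under quantile normalization 274, 189 and 212. *CDH1* made up 55.2% ± 0.261 of this sum in EV, 47.0% ± 0.794 in TBX3iso1 and 47.1% ± 2.27 in TBX3iso2. The share of *CDH3* was 39.2% ± 0.0771, 42.6% ± 0.944 and 45.2% ± 2.50 in the same order. The share of E-cadherin was thus smaller in every isoform library than in EV, and that of P-cadherin was larger, although the level of P-cadherin was lower in TBX3iso1 than in EV.

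The shares of the mesenchymal cadherins did not follow the same pattern. *CDH2* took 2.16% ± 0.0699 of the sum in EV, 5.19% ± 0.107 in TBX3iso1 and 2.25% ± 0.0335 in TBX3iso2. *CDH11* took 3.39% ± 0.109, 5.15% ± 0.231 and 5.40% ± 0.275. The *CDH2* share stood apart in TBX3iso1 and lay near that of EV in TBX3iso2, while the *CDH11* share was above EV in every library of both isoforms. The level of *CDH11* itself overlapped EV in TBX3iso1, where the summed cadherin level was lower. Relative to *CDH1*, *CDH2* was at 4.02% and 3.82% in the EV libraries, 10.8% and 11.4% in TBX3iso1, and 4.57% and 4.997% in TBX3iso2. Set against *CDH11*, it was at 0.639 in both EV libraries, 0.963 and 1.06 in TBX3iso1, and 0.398 and 0.436 in TBX3iso2.

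**Figure D3:**
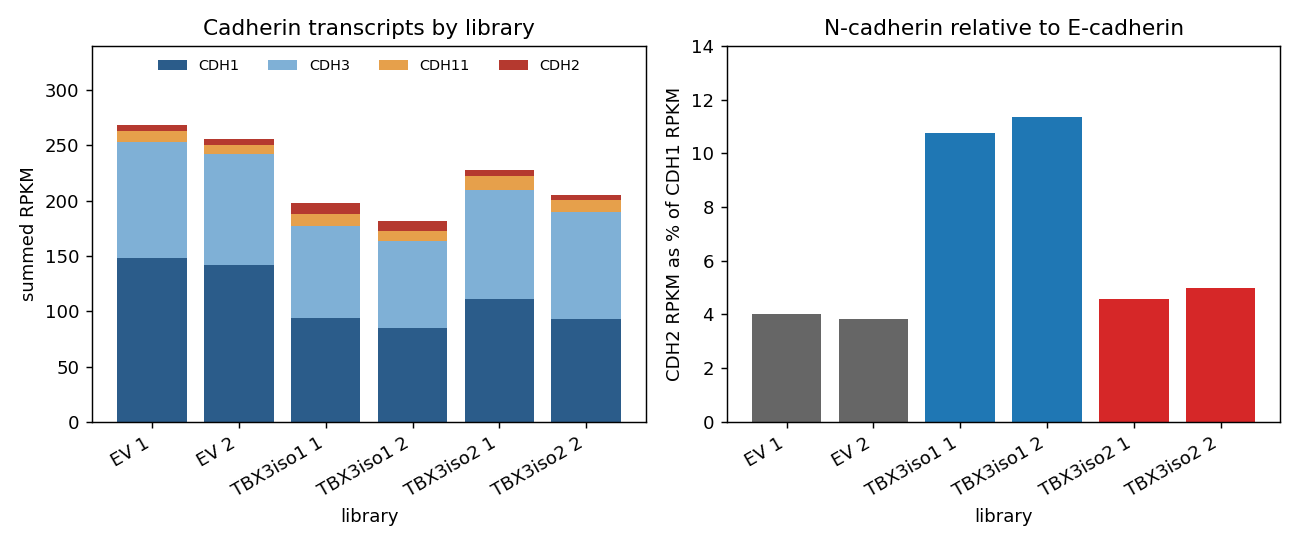
Left, summed RPKM of the cadherins in each library, stacked by gene (*CDH4* and *CDH13*, under 0.2 RPKM, are not drawn); right, *CDH2* RPKM as a percentage of *CDH1* RPKM in each library, coloured by line. The EV bars are the tallest on the left (means 263 RPKM in EV, 189.9 in TBX3iso1 and 216 in TBX3iso2), and on the right TBX3iso1 stands at 10.8% and 11.4% with all other libraries at 4.997% or less.

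The order of the members by level also differed between lines. In EV it ran *CDH1*, *CDH3*, *CTNNA1*, *CTNNB1*, *VCL*, *CTNND1*, *CDH11*, *CDH2*, *CDH13*, *CDH4*, and no neighbours overlapped. In TBX3iso1 *CDH2* and *CDH11* overlapped each other. In TBX3iso2 *CDH1* and *CDH3* overlapped, with ratios of 1.12 and 0.967 in the libraries against 1.40 and 1.41 in EV. There *CTNNB1* also overlapped *CTNNA1*, and *CTNND1* overlapped *CDH11*.

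β-catenin and α-catenin transcripts stood in a different order in EV and in the isoforms. The ratio of *CTNNB1* to *CTNNA1* was 0.848 and 0.839 in EV, 1.05 and 1.07 in TBX3iso1 and 1.02 and 1.06 in TBX3iso2. The sum of the 3 catenins was 172 ± 5.41 RPKM in EV, 159.8 ± 2.53 in TBX3iso1 and 167 ± 7.21 in TBX3iso2, a smaller relative difference than that of the cadherin sums. Relative to the 6 cadherins these 3 catenins were therefore higher in the isoforms, at 0.655 ± 0.00158 in EV, 0.843 ± 0.0365 in TBX3iso1 and 0.772 ± 0.0228 in TBX3iso2 (sum of the 3 catenins over the sum of the 6 cadherins). The sums leave out *JUP* (γ-catenin), which was lower in both isoforms than in EV, and *CDH24*, both described below. For p120-catenin the ratio to the summed cadherins was 0.0677 ± 0.000758, 0.0670 ± 0.00672 and 0.0616 ± 0.00584, with EV inside the TBX3iso1 range. Vinculin stood at 0.370 ± 0.00202 of *CTNNA1* in EV, 0.356 ± 0.0439 in TBX3iso1 and 0.352 ± 0.0716 in TBX3iso2, which differed by less than the SD within the isoforms. The ratios are descriptions of 2 libraries each and were not tested.

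The spread between replicates was not the same for all members, and it moved with transcript length. *CTNND1* and *VCL* have the longest annotated transcripts of the tested members, 7540 and 7995 bases, and had the widest replicates in the isoform lines. In TBX3iso2 replicate 2 was below replicate 1 by a log2 difference of -0.34 for *CTNND1* and -0.51 for *VCL*, and in TBX3iso1 by -0.32 and -0.28. In EV these differences were -0.05 and -0.07.

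The same slope ran through all genes, which were split by length into 10 classes. Across 11803 genes with an annotated length, Pearson's r between the log2 difference of the replicates and log2 length was -0.0753 in EV, -0.343 in TBX3iso1 and -0.446 in TBX3iso2 (genes of 1 library pair, not independent). In the class of genes with the longest transcripts the median difference from EV was -0.22 in TBX3iso1 and -0.17 in TBX3iso2, and in the class with the shortest 0.09 and 0.11. With the length trend of each library taken off, an alternative chosen after the data had been seen, *CTNND1* was at -0.30 (TBX3iso1) and -0.28 (TBX3iso2), *VCL* at -0.09 and -0.10, *CDH1* at -0.60 and -0.46, *CDH11* at 0.31 and 0.51, and *CDH2* at 0.86 and -0.20. *CTNNB1* was at 0.20 in both. The same numbers of members passed both thresholds as before, and by adjusted p alone 7, 4 and 2 passed in place of 5, 3 and 2.

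**Figure D4:**
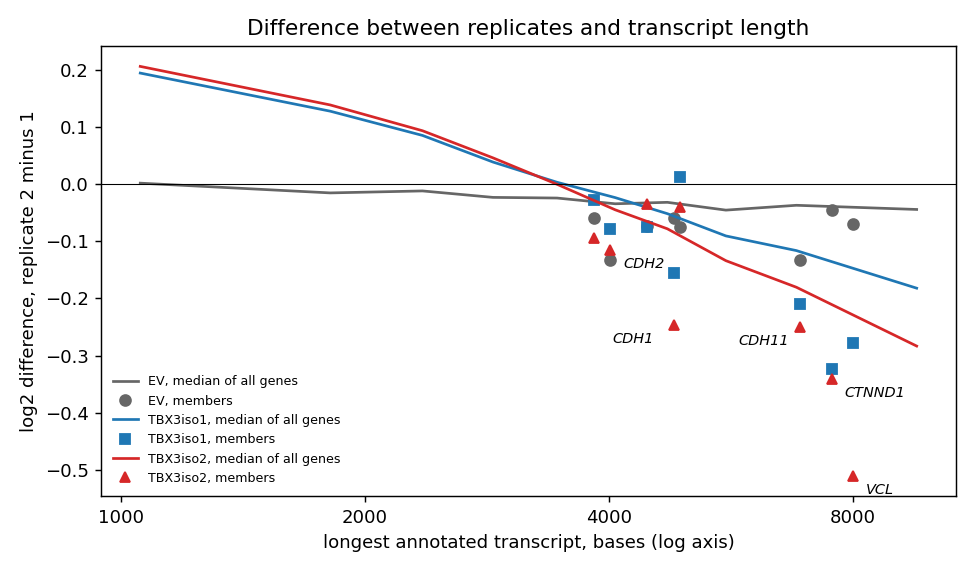
Log2 difference between replicate 2 and replicate 1 against the longest annotated transcript in bases (log axis); lines give the median of all genes in 10 length classes and symbols the 8 tested junction genes, for each line. The EV line is nearly flat, the TBX3iso1 and TBX3iso2 lines fall from 0.19 and 0.21 to -0.18 and -0.28, and *VCL* in TBX3iso2 is the lowest symbol at -0.51.

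Other genes of the junction were read from lists, each given by its counts and its median log2 difference from EV (TBX3iso1, then TBX3iso2) beside the -0.05 and -0.00 of all genes. Counts are to be read against the 21.5% and 21.2% of all genes called in TBX3iso1 and TBX3iso2. Of 17 further cadherin genes in the table only *CDH19* and *CDH24* passed the filter. Of these 2, 0 were called by limma in any comparison, although both had an adjusted p under 0.05 in TBX3iso1 against EV. There *CDH19* was higher by 0.584 (adjusted p = 0.0232), just under the log2 threshold of 0.585, and *CDH24* was at -0.31 (adjusted p = 0.0371). *CDH24* was the more abundant, at 12.7 ± 0.226 RPKM in EV (SD, n = 2), 10.3 ± 1.33 in TBX3iso1 and 12.2 ± 0.525 in TBX3iso2. Its mean was above that of *CDH2* in each line, although the libraries of the 2 genes overlapped in TBX3iso1.

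Among 6 tested relatives of the catenins (medians 0.12 and 0.36), 1 fell in TBX3iso1, and 1 rose and 1 fell in TBX3iso2. *ARVCF*, a p120 relative that binds cadherins at the same site, fell in both, from 9.35 ± 0.429 RPKM in EV to 3.22 ± 0.409 in TBX3iso1 (log2 difference -1.51, adjusted p = 5.2e-05) and 5.47 ± 0.0184 in TBX3iso2 (-0.76, adjusted p = 0.00113). It was also higher in TBX3iso2 than in TBX3iso1 by 0.75 (adjusted p = 0.00492). *CTNNAL1*, an α-catenin relative, rose in TBX3iso2 by 0.65 (adjusted p = 0.000554). *JUP*, or γ-catenin, which can take the place of β-catenin on the cadherin tail, was the most abundant of the list, at 72.5 ± 3.54 RPKM in EV, 50.0 ± 0.686 in TBX3iso1 and 52.8 ± 0.746 in TBX3iso2. Its differences of -0.53 and -0.46 (adjusted p = 0.000939 and 0.00187) passed the adjusted p and not 1.5-fold.

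Nectins are immunoglobulin-like adhesion proteins that share junctions with cadherins through afadin. Of 12 tested genes of nectins and junction scaffolds (medians -0.01 and -0.03), 1 rose and 1 fell in TBX3iso1, and 1 rose and 2 fell in TBX3iso2. *PLEKHA7*, which ties p120-catenin to microtubules, fell from 5.61 ± 0.305 RPKM in EV to 2.11 ± 0.304 in TBX3iso1 (-1.37, adjusted p = 0.000643) and 2.54 ± 0.590 in TBX3iso2 (-1.13, adjusted p = 0.00154). *PVRL3* (nectin-3) rose by 0.87 and 0.61 (adjusted p = 0.0012 and 0.0059). *PVRL4* (nectin-4) fell in TBX3iso2 (-1.26, adjusted p = 7.6e-05) and was lower there than in TBX3iso1 by a log2 difference of -0.71 (adjusted p = 0.00415). *PVRL2*, the highest of the list at 34.8 RPKM in EV, was at -0.21 and -0.39 without reaching 1.5-fold.

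On the actin side, 10 linker genes were tested (medians -0.31 and -0.00), of which 1 fell in TBX3iso1 and 0 were called by limma in TBX3iso2. The gene that fell was *ENAH*, an actin-elongating protein, at -0.67 (adjusted p = 0.00377). Between the isoforms, *AJUBA*, a LIM protein that binds α-catenin, and *LIMA1*, an actin-bundling protein, were higher in TBX3iso2 than in TBX3iso1 by 0.76 (adjusted p = 0.000914) and 0.61 (adjusted p = 0.00337). *ACTN1*, or α-actinin, was the most abundant at 260.3 ± 12.2 RPKM in EV, 191 ± 16.4 in TBX3iso1 and 256 ± 24.0 in TBX3iso2, and was not called.

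Of 13 tested genes of β-catenin turnover and its nuclear partners (medians -0.26 and -0.05), 1 rose in each isoform and 0 fell. It was *LEF1*, a DNA-binding partner of β-catenin, at 0.850 ± 0.0528 RPKM in EV, 1.34 ± 0.0103 in TBX3iso1 (log2 difference 0.60, adjusted p = 0.00879) and 1.54 ± 0.116 in TBX3iso2 (0.79, adjusted p = 0.00257). These levels were near the 0.5 RPKM filter, where the 0.1 RPKM added before the logarithm weighs more on the difference. The highest of the list, the casein kinase gene *CSNK1A1* at 52.1 RPKM in EV, was at -0.15 and 0.07 and was not called.

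Of 17 tested genes of cadherin cleavage, uptake and p120 partners (medians -0.09 and -0.18), 0 rose, 1 fell in TBX3iso1 and 2 fell in TBX3iso2. *DAB2*, an endocytic adaptor, fell in both (-0.60, adjusted p = 0.00974, and -0.90, adjusted p = 0.00156). *FYN*, a SRC-family kinase, fell in TBX3iso2 (-1.30, adjusted p = 0.000257) and was lower there than in TBX3iso1 (-0.84, adjusted p = 0.00693), as was the phosphatase gene *PTPRJ* (-0.79, adjusted p = 0.00695). The highest of the list was *ADAM15*, a membrane protease, at 146 RPKM in EV with differences of 0.01 and -0.01.

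Transcription factors known to repress *CDH1* moved in both directions, and of 6 tested (medians 0.36 and 0.03), 2 rose and 2 fell in each isoform. Called genes made up 66.7% of these 6, where the share among all genes was 21.5% and 21.2%. The 6 include the transfected *TBX3*. They also include *SNAI2* and *TWIST1*, which the study had placed downstream of TBX3, in part from these same data. The list was therefore not chosen independently of the result, and nothing is drawn from its larger share. *SNAI1* fell, from 3.90 ± 0.0196 RPKM in EV to 1.27 ± 0.211 in TBX3iso1 (-1.55, adjusted p = 0.000172) and 1.74 ± 0.184 in TBX3iso2 (-1.12, adjusted p = 0.000724). *TWIST1*, the highest of the list in EV at 31.5 ± 1.73 RPKM, fell to 18.9 ± 0.954 (-0.73, adjusted p = 0.000309) and 14.03 ± 0.265 (-1.16, adjusted p = 4.2e-05). The study reported TWIST1 as up-regulated with TBX3, its evidence including western blots of protein. The transcript values here run the other way, and the reason was not tested. *SNAI2* rose, from 12.2 ± 0.409 RPKM to 27.1 ± 1.14 in TBX3iso1 (1.14, adjusted p = 5.2e-05) and 19.3 ± 1.34 in TBX3iso2 (0.65, adjusted p = 0.000616). The other gene that rose was *ZEB1* in TBX3iso1 (0.60, adjusted p = 0.0311), named after its values were seen, and in TBX3iso2 it was *TBX3*, the transfected gene (0.97, adjusted p = 0.000257). *ZEB1* was at 1.09 RPKM in EV, so the added 0.1 RPKM weighs on its difference too.

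**Figure D5:**
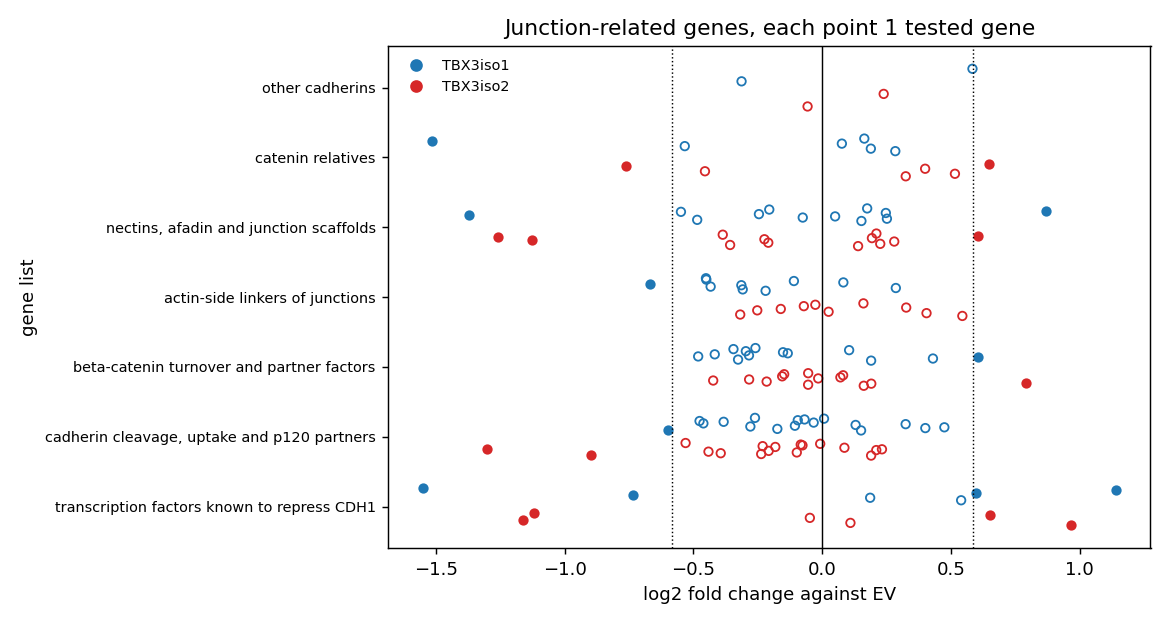
Log2 fold change against EV of each tested gene in 7 lists of junction-related genes, TBX3iso1 in blue and TBX3iso2 in red; filled points passed both thresholds and dotted lines mark 1.5-fold. The list of factors known to repress *CDH1* has 2 filled points on each side in each isoform, and most points of the other lists are open and within the dotted lines.

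Markers of other cell types were read beside these results. All 8 epithelial markers were above 1 RPKM in every library, with a summed level of 2873 to 2966 RPKM in EV, 2393 to 2669 in TBX3iso1 and 2793 to 3192 in TBX3iso2. Both TBX3iso1 sums were below EV, and the TBX3iso2 sums lay on either side of it. The median log2 difference of the 8 was -0.36 in TBX3iso1 and -0.04 in TBX3iso2, and 2 of the 8 fell in each isoform (25%, against 14.1% and 12.3% of all genes that were called lower). *CLDN7*, a tight-junction claudin, fell in both isoforms (-0.78 and -0.62), *ESRP1*, an epithelial splicing factor, fell in TBX3iso1 (-0.60), and *KRT19* fell in TBX3iso2 (-0.72). In TBX3iso2 *EPCAM* was at 0.26, *KRT7* at 0.35, *KRT18* at 0.30 and *KRT8* at 0.12, none of which passed the test, and 0 of the 8 were called higher by limma in either isoform. Of 8 fibroblast markers 7 were under 1 RPKM in every library. The exception was *COL1A1*, and the summed level of the list was 4.73 to 5.01 RPKM in EV, 8.19 to 8.84 in TBX3iso1 and 7.20 to 7.62 in TBX3iso2. Of 6 endothelial markers 5 were under 1 RPKM. The other was *PECAM1*, at 7.29 ± 0.239 RPKM in EV, 1.15 ± 0.0153 in TBX3iso1 and 1.29 ± 0.113 in TBX3iso2. Of 5 leucocyte markers 3 were under 1 RPKM, and *CD14* was at 10.1 ± 0.890, 2.41 ± 0.263 and 2.40 ± 0.226 RPKM. *COL1A1* was higher and *PECAM1* and *CD14* were lower in both isoforms than in EV, as *CDH1* was lower, and their part in the *CDH1* result was not tested.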

How the data were processed

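Stranded mRNA libraries of 3 stably transfected 21NT lines, 2 libraries each, were sequenced as paired-end reads. With TopHat, run in Galaxy, the authors mapped them to hg19, keeping up to 10 alignments per read, and deposited RPKM values from Partek Genomics Suite for 20824 genes. Software versions and the gene annotation are not given in the sources used here. RPKM counts no reads, so counting intervals were not computed. Libraries held between 43176600 and 54512400 alignments. The deposited table also carries the number of alignments of each library, which gave alignments per kilobase. All 6 value columns were used.

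RPKM values were taken to log2 after adding 0.1. Genes averaging 0.5 RPKM or more, 12805 in number, were fitted with limma 3.58.1 in R 4.3.3, with 1 mean per line, trended empirical Bayes moderation, and Benjamini-Hochberg correction across all genes tested. The thresholds, adjusted p under 0.05 and 1.5-fold, are those of the study, which used ANOVA. Gene positions and transcript lengths came from the GENCODE annotation on GRCh37, matched by symbol, and primers from the study's supplement were matched to its transcripts. Promoter windows came from the RefSeq table on GRCh38.p14.

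Text names all members, *TBX3*, and from each list the called genes (at most the 3 largest changes per isoform) and the highest gene in EV. The members and lists were chosen with earlier results of these data known. The alternatives tried were other pseudocounts (1 and 0.01 RPKM), other filters (none, or 2 RPKM), median-ratio scaling, quantile normalization, only the lines compared, a replicate block, no trend, ordinary linear models, leaving out each library and, added after seeing the data, length-adjusted values. Figures were drawn with matplotlib 3.10.9.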

Additional observations from a re-analysis of the deposited data

Results flagged for a closer look

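*CDH2* was picked out because the effects of the isoforms differed by a test of the difference itself. The log2 difference of TBX3iso2 minus TBX3iso1 was -1.01 (limma, adjusted p = 0.000873), with both TBX3iso1 libraries above both EV libraries and both TBX3iso2 libraries below them. Groups of 2 libraries are too small for a test of a single deviating library.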

How the results depend on the processing

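A difference counts as called when it passes the adjusted p and the fold threshold together. Of the log2 differences of members under the alternatives, 424 kept their direction and their call, 8 reversed and 6 were called only under the alternative. The other filters, only the lines compared, the replicate block, no trend and the ordinary model on log2 values leave the log2 difference itself as it was. So does leaving out a library of the line not compared. Under these the direction could not change, and a tested member under 1.5-fold could not become called. By adjusted p alone more of the differences crossed: of 432 values of the tested members, 46 lost an adjusted p under 0.05 and 11 gained one. The reversals concerned differences that were not called. They were *CTNNB1* between the isoforms under median-ratio scaling (-0.00656), *VCL* between the isoforms under median-ratio scaling (-0.000585) and with length-adjusted values (-0.00303), and values with a library left out. Leaving out 1 library at a time, *VCL* ranged from -0.492 to 0.0178 in TBX3iso2 against EV and from -0.205 to 0.305 between the isoforms (-0.0891 without TBX3iso1 replicate 2), and *CTNND1* between the isoforms from -0.105 to 0.235 (-0.0971 without TBX3iso1 replicate 2). The count of members called in TBX3iso2 against EV was 1 under quantile normalization (*CDH1*, -0.64) and 0 to 2 when 1 library was left out, the 2 being *CDH1* and *CTNND1* without TBX3iso2 replicate 1. In TBX3iso1 against EV it was 2 to 3 in the same way, *CTNND1* being added without TBX3iso1 replicate 1. With no filter on low values it was 3 in TBX3iso1 against EV and 2 between the isoforms, since *CDH13* was then tested and called in both. The cause of the other changes was not tested.

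Among all genes, 2757 were called in TBX3iso1 against EV and 1812 with a pseudocount of 1 RPKM. Between the isoforms 805 were called, against 419 with a pseudocount of 1 RPKM, 504 with a filter at 2 RPKM (fewer genes tested), and 199 and 176 with ordinary linear models on log2 and unlogged values. The share of higher genes among those called was 34.6%, 42.1% and 55.2% in TBX3iso1, in TBX3iso2 and between the isoforms, and became 46.6%, 46.7% and 44.4% under median-ratio scaling and 49.6%, 50.2% and 44.4% under quantile normalization. With a replicate block 2, 0 and 1 members and 2838, 2795 and 900 genes were called, and the block changed no call of a member. It leaves each log2 difference as it was, so members under 1.5-fold could not become called. By adjusted p alone 6, 4 and 3 members passed with the block, against 5, 3 and 2 without it: those added were *VCL* in TBX3iso1 (adjusted p = 0.0333), *CDH2* in TBX3iso2 (0.0359) and *CDH11* between the isoforms (0.0342). The labels do not say what libraries with the same replicate number share. The differences between replicates correlated across genes at 0.220 (EV, TBX3iso1), 0.114 (EV, TBX3iso2) and 0.499 (the isoforms). A library left alone in its line was assumed to vary like the other lines.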
